A study of Hordeum vulgare with 30 samples.

Results

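The genes described here parted the six-row from the two-row varieties in a root RNA-seq experiment on barley. They were selected on their measured levels. A gene was taken when each of the 10 group means reached 1 CPM (the count divided by the total of its library, times 1000000) and the lowest mean of one row type was at least 1.5 times the highest mean of the other. Of 35826 genes in the table, 17173 reached the minimum in every group, and 23 of these met the rule, which is 0.134%. Levels of 7 genes were higher in the six-row varieties and levels of 16 were lower. As the rule used the difference between row types, that difference is described below and not tested.

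The six-row varieties were Pilastro and Passport, both winter barleys. The two-row varieties were the winter barleys Infinity and Regina and the spring barley Golden Promise, a common model variety. Seedlings were grown in soil for 10 days and then waterlogged for 24 h, or watered normally as controls of the same variety. Each sample combined the root systems of 3 plants, and with 3 samples for each variety and treatment there were 12 six-row and 18 two-row libraries. Row type thus rests on 2 varieties against 3. All six-row plants were winter types. The sample titles number the replicates of every variety 1 to 3, and these numbers are used here. The count table numbers the replicates of the six-row varieties differently from the others, and what these numbers mark is not stated. If they mark separate runs, row type and run cannot be told apart, and this was not tested.

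Row type describes the barley ear. In two-row barley the side spikelets of each node stay sterile, whereas in six-row barley they set grain. The main switch is Vrs1, a homeodomain-leucine zipper gene on the long arm of chromosome 2H that holds back the side spikelets, and six-row barleys carry forms of it that no longer work. Two-row and six-row barleys have largely been bred as separate pools. The roots sequenced here carry no spikelets, and no identifier of the table was paired with Vrs1 in the sources used here.

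Total counts were 12046408 to 12317952 in the six-row libraries and 9601984 to 12349136 in the two-row libraries, and the part of this depth difference in the results was not tested. Reads were aligned to the genome of Morex, which is itself a six-row variety. A lower level in a variety and a poorer alignment of its reads to Morex cannot be told apart in these counts. In whole roots, fewer cells of a type and less RNA per cell cannot be told apart either. The summed level of 5 genes chosen here as root markers (a nitrate transporter, peroxidases and a lateral root primordium protein) was 62.2 to 254 CPM in six-row and 46.4 to 257 CPM in two-row libraries. That of 4 leaf photosynthesis genes was 32.0 to 43.7 CPM in six-row and 30.5 to 47.4 CPM in two-row libraries. Both sums overlapped between the row types. Most of the leaf sum came from a single gene, chlorophyll synthase, with medians of 33.9 CPM in six-row and 36.1 CPM in two-row libraries. The leaf sum thus says little about leaf genes as a group. Most of the root sum came from the nitrate transporter, with medians of 108 CPM in six-row and 107 CPM in two-row libraries. The study named this gene and the peroxidases among those lowered by waterlogging in all varieties, on these same samples. The root sum was thus bound to differ by treatment, with a median of 96.7 CPM in waterlogged and 181 CPM in control libraries. It says little about which cells the samples held.

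Only 2 of the 23 genes have a description in the study's tables at hand, which cover 4776 of the 35826 identifiers. Both are among the genes with lower levels in six-row varieties. The other genes are called here by their chromosome and a letter that follows their order along it, from 1Ha to 7Hb, and 4 of them are given with their identifier. In each direction these are the genes with the largest separation, which is the lowest group mean of the higher row type divided by the highest group mean of the lower row type. Levels of different genes are not compared, because gene lengths were not used.

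The largest separation of all was that of 6Hi (HORVU.MOREX.r3.6HG0632840), at 5.86. Its level was 150 CPM in the lowest, 203 CPM in the median and 286 CPM in the highest six-row library, against 17.2, 25.7 and 43.4 CPM in two-row libraries. The lowest six-row library stood far above the highest two-row library. The mean was 207 ± 37.8 CPM in six-row (SD, n = 12) and 26.7 ± 6.89 CPM in two-row libraries (SD, n = 18), so that the six-row mean was 7.75 times the two-row mean.

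The gene next to it in the table, 6Hh (HORVU.MOREX.r3.6HG0632830), had a separation of 5.39. It was at 32.6, 41.9 and 68.3 CPM in the lowest, median and highest six-row library, against 3.35, 5.73 and 10.0 CPM in two-row libraries. The row types did not overlap. The mean ratio was 7.63, close to that of 6Hi. No gene lies between 6Hh and 6Hi in the table, and how reads that fit several genes were counted is not given in the sources used here, so the division of reads between these neighbors is uncertain. Within the six-row groups the library with replicate number 1 was the highest of its group in 4 of 4 groups for both genes.

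Among the genes with lower levels in six-row roots, 3Ha (HORVU.MOREX.r3.3HG0296280) was separated most, by 5.76. It was at 5.51, 11.9 and 24.2 CPM in the lowest, median and highest six-row library, against 37.2, 98.7 and 195 CPM in two-row libraries. No two-row library fell to the level of a six-row library, although two-row libraries differed widely among themselves. The library with number 2 was the lowest of its group in 5 of 6 two-row groups. Two-row roots held 8.28 times the six-row mean.

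The second, 2Hd (HORVU.MOREX.r3.2HG0208740), had a separation of 3.74. It was at 0.996, 1.32 and 2.04 CPM in the lowest, median and highest six-row library, against 5.09, 6.77 and 9.68 CPM in two-row libraries. Its six-row levels were near the minimum of the rule, and the lowest library held 12 counts.

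The first of the described genes, 3Hc (HORVU.MOREX.r3.3HG0321570), is annotated as a member of the amidohydrolase family. Enzymes of this family are metal-dependent hydrolases that mostly split bonds between carbon and nitrogen, for example in the breakdown of nucleobases and ureides. It was at 8.04, 9.62 and 13.6 CPM in the lowest, median and highest six-row library, against 20.1, 24.8 and 30.1 CPM in two-row libraries. The mean was 9.76 ± 1.43 CPM in six-row (SD, n = 12) and 24.8 ± 2.77 CPM in two-row libraries (SD, n = 18). The row types did not overlap, and the two-row mean was 2.54 times the six-row mean.

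The other, 6He (HORVU.MOREX.r3.6HG0629330), is annotated as an ABC1-like kinase. ABC1-like kinases are atypical protein kinases of plastids and mitochondria, known for their part in the metabolism of quinones and other isoprenoid lipids. It was at 5.62, 7.08 and 9.42 CPM in the lowest, median and highest six-row library, against 13.4, 16.3 and 19.4 CPM in two-row libraries. The mean was 7.16 ± 1.14 CPM in six-row (SD, n = 12) and 16.3 ± 1.79 CPM in two-row libraries (SD, n = 18). These libraries did not overlap either, and the ratio of two-row to six-row means was 2.28.

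**Figure D1:**
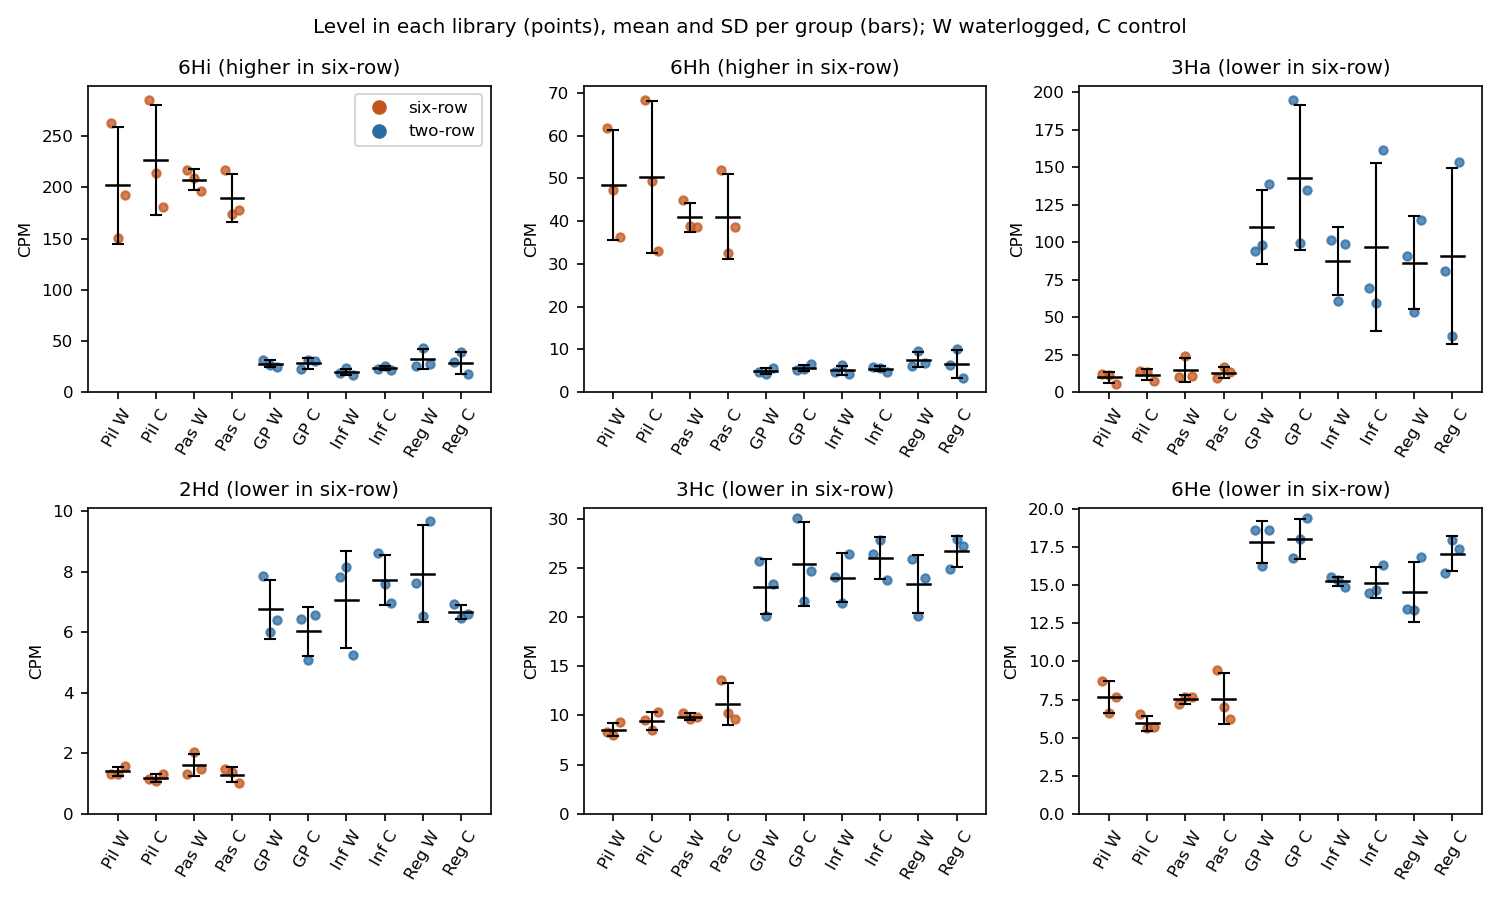
Level in CPM (vertical axis, from 0) of 6 genes in each of 30 libraries (points), with the mean and SD of each group of 3 (black); Pilastro (Pil) and Passport (Pas) are six-row and Golden Promise (GP), Infinity (Inf) and Regina (Reg) two-row, waterlogged (W) or control (C). The six-row libraries of 6Hi lie between 150 and 286 CPM and the two-row libraries between 17.2 and 43.4 CPM, and in 3Ha the order is turned round.

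The separations of the remaining 5 genes that were higher in six-row roots were 2.35 for 2Hg, 2.24 for 6Hf, 2.21 for 6Ha, 1.83 for 1Ha and 1.59 for 6Hb. The level of 2Hg was the steadiest of these, at 72.3 ± 6.95 CPM in six-row (SD, n = 12) and 24.7 ± 3.92 CPM in two-row libraries (SD, n = 18). The level of 6Ha had the widest range, at 16.6 to 167 CPM in six-row libraries and 0.646 to 20.2 CPM in two-row libraries. Of its 12 six-row libraries, 2 were not above the highest two-row library.

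The membership of 1Ha rested on single libraries. In Passport its level was 32.6, 7.98 and 10.6 CPM in the 3 waterlogged libraries, against 33.8, 9.82 and 14.4 CPM in the 3 controls. The library with replicate number 1 was thus about as high in both treatments, and the others lay in or near the two-row range, whose highest library was at 13.6 CPM. Without Passport Waterlogged replicate 1 the separation of 1Ha was 0.998, and without Passport Control replicate 1 it was 1.30. In Infinity, 1 waterlogged library had 0 counts of this gene.

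The separations of the remaining 12 genes that were lower in six-row roots ran from 1.51 for 2Hb to 2.23 for 2He. That of 6Hd was 2.06, and those of 2Ha and 6Hg were 1.88 and 1.78. The other 8 (1Hb, 6Hc, 7Ha, 2Hc, 7Hb, 3Hb, 2Hf and 2Hb) lay between 1.51 and 1.70. Libraries of 6Hd were spread most, at 2.38 to 172 CPM in six-row and 94.0 to 641 CPM in two-row roots.

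**Figure D2:**
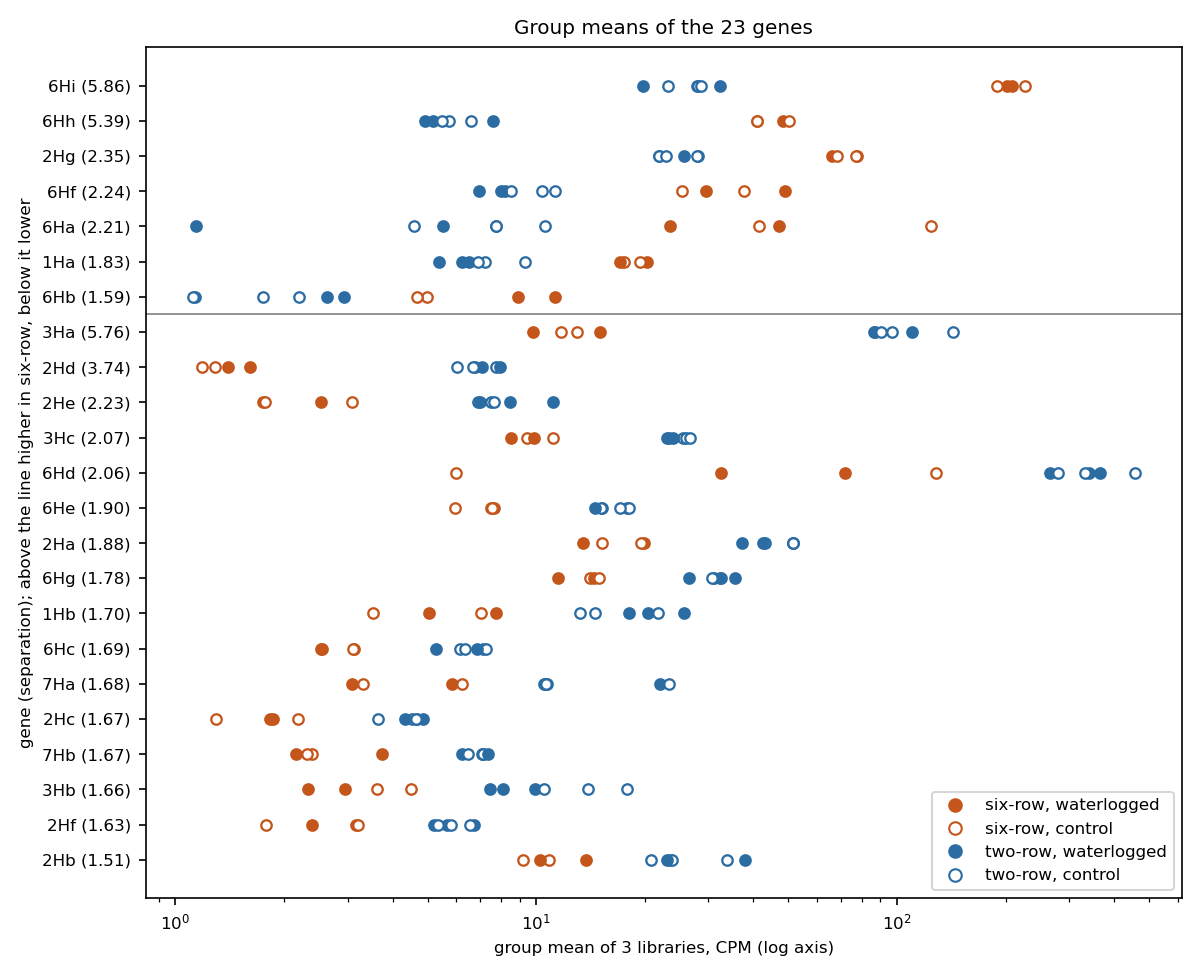
Mean CPM of each group of 3 libraries (horizontal log axis) for the 23 genes, ordered by separation (in brackets) within each direction; orange marks six-row and blue two-row groups, filled circles waterlogged and open circles control. The gap between the colors is wide for 6Hi, 6Hh, 3Ha and 2Hd and narrow for 6Hb and 2Hb.

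Single libraries did not overlap between the row types for 13 of the 23 genes, against 31 of all 17173 genes past the minimum (0.181%). The rule used the same libraries, so this is a description only. These genes were 2Hg, 6Hf, 6Hh and 6Hi among those higher in six-row roots, and 2Ha, 2Hb, 2Hd, 3Ha, 3Hc, 6Hc, 6He, 6Hg and 7Ha among those lower. In the 10 other genes, 1 to 5 libraries of the higher row type were not above the highest library of the lower one. The median coefficient of variation between libraries of a group was 22.0% in these genes, against 13.9% over all genes past the minimum.

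The smallest separation that passed the threshold of 1.5 was 1.59 for 6Hb in the higher direction and 1.51 for 2Hb in the lower one. Of the described genes, 6He at 1.90 was the nearest inside, in the lower direction. Outside it, a gene described as a non-specific lipid-transfer protein-like protein (HORVU.MOREX.r3.1HG0010340), of a family of small proteins that bind lipids, reached 1.49 in the higher direction. Its group means were 70.7 to 102 CPM in six-row and 28.2 to 47.3 CPM in two-row roots. In the lower direction a gene of the aldose 1-epimerase family (HORVU.MOREX.r3.6HG0570230), whose enzymes turn the anomers of sugars into each other, reached 1.42. Its group means were 1.33 to 1.79 CPM in six-row and 2.54 to 3.28 CPM in two-row roots. In each six-row group the SD was close to the mean, and the largest was 1.57 CPM in Pilastro Waterlogged. Among two-row groups the largest SD was 0.762 CPM, in Infinity Waterlogged. The six-row means of this gene thus stood for libraries that differed widely within each group.

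The rule itself required a difference between row types under both treatments, so the ratios by treatment are a description. In waterlogged roots the six-row mean of the 7 higher genes was 2.85 to 7.68 times the two-row mean, and in control roots it was 2.36 to 10.8 times. For the 16 lower genes the two-row mean was 2.1 to 7.64 times the six-row mean in waterlogged roots and 2.17 to 8.92 times in control roots. Whether the waterlogging response differed between row types was tested, but the rule used waterlogged and control means together, which limits the responses that could pass it, and the counts among the 23 genes are read only with that limit. By edgeR's quasi-likelihood test it called 0 of the 23 genes and 0 of all 20576 genes tested (0.0%). At an unadjusted p under 0.05 it found 0 of the 23, against 1016 of all genes (4.94%). DESeq2 called 0 of the 23 and 13 of all genes (0.052%). Among the 23, the difference in log2 fold change between row types ran from -0.43 to 0.89.

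The genes were unevenly placed on the chromosomes. Chromosome 6H held 9 of the 23 and 11.6% of the genes past the minimum. Chromosome 2H held 7 of them and 16.7% of those genes. On 3H there were 3, and on 1H and 7H 2 each. None lay on 4H or 5H, where 2121 and 2769 genes were past the minimum. When the row types had to lie only 25% apart, the rule gave 72 genes, of which 22 were on 6H, 12 on 2H, 1 on 4H and 4 on 5H. All 23 genes are among these 72, so the larger set is no independent support.

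Many of the genes on 6H and 2H lay near the end of the chromosome. Of the 9 on 6H, 6Hd to 6Hi lay between the places 4017 and 4223 among its 4309 genes in order of identifier. This stretch, chosen after the positions were seen, held 101 genes past the minimum, of which 6 met the rule (5.94%), against 0.134% over all chromosomes. Both directions occurred side by side in it, as 6Hd, 6He and 6Hg were lower and 6Hf, 6Hh and 6Hi higher in six-row roots. On 2H, the genes 2He, 2Hf and 2Hg lay between the places 5743 and 5779 of 5808, a stretch with 10 genes past the minimum. The first and second of these were lower and the third was higher in six-row roots. On 3H, the lower genes 3Hb and 3Hc had 25 genes between them, of which 8 were past the minimum. With at most 10 genes between neighbors, the pairs 2He and 2Hf, 6Hd and 6He, and 6Hh and 6Hi formed runs, with 5, 3 and 0 genes between them. Each of these runs had 1 direction.

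**Figure D3:**
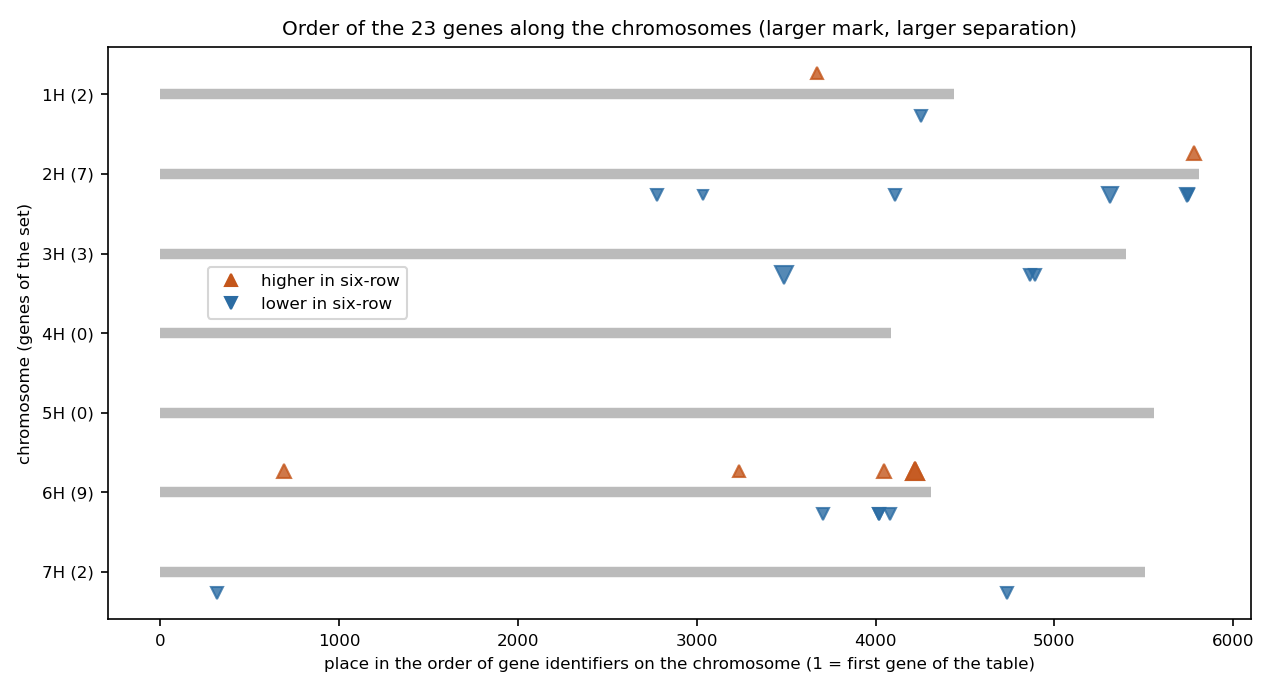
Place of the 23 genes in the order of gene identifiers (horizontal axis, counted in genes from the start of the table for each chromosome) on chromosomes 1H to 7H, with the number of genes of the set in brackets; upward marks were higher and downward marks lower in six-row roots, and larger marks had a larger separation. Marks gather at the right end of 6H and 2H, and 4H and 5H carry none.

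Varieties of the same row type also differed in some of these genes, and this was tested. The rule used the lowest and highest group means of the row types, so spread within a row type lowered the separation. Counts among the 23 genes between varieties of the same row type are read only with that limit. Beside the shares over all genes, they are no result about the 23 genes as a set, and single genes are described. Pilastro and Passport differed in 4 of the 23 genes by edgeR (quasi-likelihood test, p-values adjusted over all 20576 genes tested), against 11.5% of all genes. DESeq2 called 5, against 10.9% of all genes. The clearest was 7Ha. Its level was 4.69, 5.75 and 7.26 CPM in the lowest, median and highest Pilastro library, against 2.37, 3.31 and 3.67 CPM in Passport libraries. The Pilastro libraries were all above the Passport libraries, and the log2 fold change was 0.93 ± 0.12 (SE; edgeR adjusted p = 8.52e-06).

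The level of 2Hb was 9.67, 12.2 and 14.6 CPM in the lowest, median and highest Pilastro library, against 8.58, 9.38 and 12.4 CPM in Passport libraries. These ranges overlapped, and the log2 fold change was 0.34 ± 0.08 (SE; edgeR adjusted p = 0.00554). In the opposite direction, 2Ha was at 13.0, 13.7 and 17.3 CPM in Pilastro and at 13.8, 20.3 and 24.1 CPM in Passport libraries. Its log2 fold change was -0.45 ± 0.11 (SE; edgeR adjusted p = 0.0102).

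The largest difference between the six-row varieties was that of 6Hd, at 48.1, 101 and 172 CPM in Pilastro libraries and at 2.38, 6.0 and 86.3 CPM in Passport libraries. The log2 fold change was 2.79 ± 0.60 (SE; edgeR adjusted p = 0.00257). Of the 6 Passport libraries, a single waterlogged one reached the Pilastro range. Its group held 3.05, 86.3 and 8.09 CPM, against 2.38, 11.7 and 3.90 CPM in the Passport controls.

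Among the two-row varieties 4 of the 23 genes differed, against 29.1% of all genes tested, and in DESeq2 the count was 4, against 26.7%. In 7Ha and 2Hb it was Golden Promise that stood apart. The level of 7Ha was 18.9 to 28 CPM in Golden Promise, 9.06 to 12.2 CPM in Infinity and 9.63 to 11.5 CPM in Regina (edgeR F-test over the 3 varieties, adjusted p = 6.96e-08). That of 2Hb was 31.7 to 40.7 CPM in Golden Promise, 22.1 to 25.5 CPM in Infinity and 20.2 to 25.9 CPM in Regina (adjusted p = 9.27e-07). In both genes the Golden Promise libraries did not overlap with those of the other two-row varieties, and the libraries of Infinity and Regina overlapped. In 2Hg the range was 18.5 to 25.2 CPM in Golden Promise, 21.7 to 32.2 CPM in Infinity and 20.3 to 26.3 CPM in Regina (adjusted p = 0.00347). In 6Hb it was 0.729 to 1.51 CPM in Golden Promise, 1.44 to 3.12 CPM in Infinity and 1.29 to 4.04 CPM in Regina (adjusted p = 0.0149). Ranges of all 3 varieties overlapped in 2Hg. In 6Hb that of Golden Promise overlapped only at its upper end with the others.

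Both tests called 7Ha and 2Hb, for which the rule placed the six-row below the two-row groups. For 7Ha the variety means were 3.2 CPM in Passport, 6.05 CPM in Pilastro, 10.6 CPM in Regina, 10.6 CPM in Infinity and 22.7 CPM in Golden Promise. For 2Hb they were 9.72 CPM in Passport, 12.3 CPM in Pilastro, 21.9 CPM in Regina, 23.6 CPM in Infinity and 35.9 CPM in Golden Promise.

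**Figure D4:**
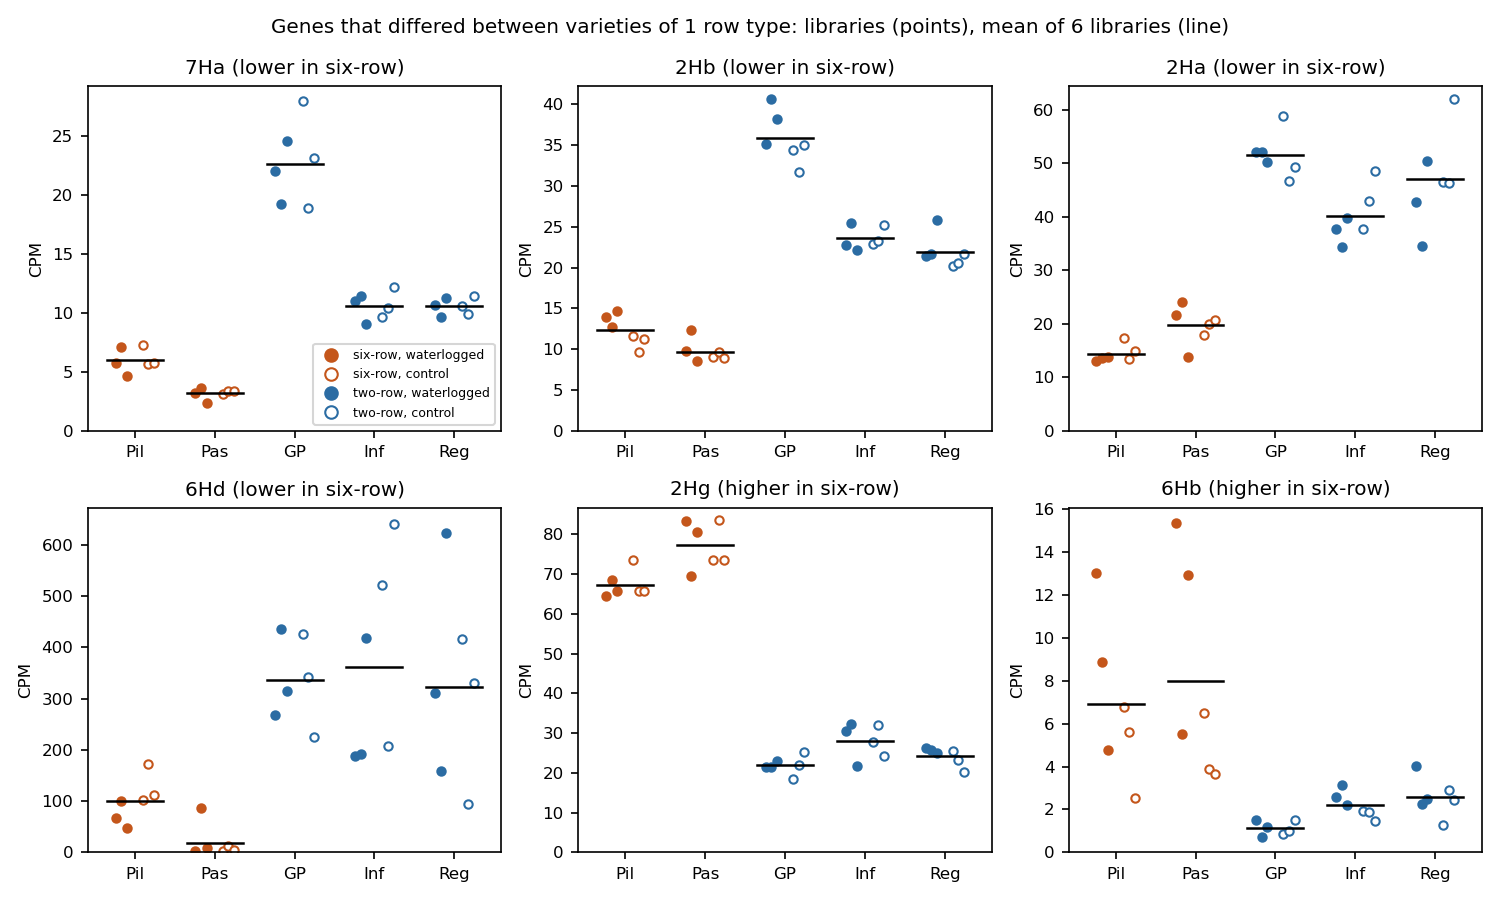
Level in CPM (vertical axis, from 0) of the 6 genes that differed within a row type, by variety, with filled circles for waterlogged and open circles for control libraries and a line at the mean of the 6 libraries of a variety. The Golden Promise libraries of 7Ha lie between 18.9 and 28 CPM, above the 9.06 to 12.2 CPM of Infinity.

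After waterlogging, none of the 23 genes was called in any variety by edgeR at an adjusted p under 0.05. The counts were 0 in Pilastro, where 3.82% of all genes were called, 0 in Passport (1.08%), 0 in Golden Promise (0.442%), 0 in Infinity (3.92%) and 0 in Regina (4.04%). At these shares, 0 of 23 is no result about these genes. The rule also took waterlogged and control means together, which limits the responses that could pass it, and all counts of this test are read with that limit. Without adjustment, p was under 0.05 for 5 of the 23 in Pilastro (20.1% of all genes), 2 in Passport (13.6%), 0 in Golden Promise (6.49%), 0 in Infinity (17.4%) and 2 in Regina (15.1%). DESeq2 called 0 of the 23 in Pilastro (6.07% of all genes), 0 in Passport (2.39%), 0 in Golden Promise (0.916%), 0 in Infinity (5.23%) and 1 in Regina (4.94%). The median log2 fold change of the 23 genes was between -0.04 in Infinity and 0.03 in Regina, and over all genes tested it was between -0.03 and 0.00.

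The gene nearest to a call was 6Ha, one of those higher in six-row roots. In Regina its level was 0.845, 1.51 and 1.05 CPM in the 3 waterlogged libraries, against 0.646, 5.20 and 17.4 CPM in the 3 controls. The waterlogged libraries lay together, and the controls were spread on both sides of them. Counts were low, at 9, 16 and 11 in the waterlogged libraries and 7, 54 and 187 in the controls. The log2 fold change was -2.69 ± 0.80 (SE; edgeR adjusted p = 0.0621). DESeq2 gave an adjusted p of 0.00446, and edgeR without Regina Control replicate 1, the lowest control, gave 0.00777. Over 10 alternatives the adjusted p of this gene was 0.00446 to 0.419. In Pilastro the same gene was at 57.3, 52.8 and 31.2 CPM in waterlogged and at 167, 101 and 104 CPM in control libraries. Here the groups did not overlap, with a log2 fold change of -1.38 ± 0.61 (SE; edgeR adjusted p = 0.203). In Passport it was at 16.6, 18.4 and 35.3 CPM in waterlogged and at 35.3, 44.8 and 44.0 CPM in control libraries, with a log2 fold change of -0.81. The other varieties did not share 1 direction. In Golden Promise its level was 8.27, 11.7 and 3.16 CPM in waterlogged and 3.34, 7.26 and 3.19 CPM in control libraries, with a log2 fold change of 0.74. In Infinity it was 4.44, 3.95 and 8.17 CPM in waterlogged and 20.2, 5.62 and 5.87 CPM in control libraries, with a log2 fold change of -0.87. In both the groups overlapped. The next lowest adjusted p was that of 2Hb in Pilastro, where the log2 fold change was 0.36 ± 0.11 (SE; edgeR adjusted p = 0.0757). There the waterlogged libraries of 2Hb were all above the controls.

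Of the 23 genes, 1 was called in Regina when libraries were paired by replicate number, against 5.84% of all genes in that fit. The level of 3Hb there was 5.35, 7.65 and 11.2 CPM in the waterlogged libraries numbered 1 to 3, against 8.59, 16.8 and 28.2 CPM in the controls of the same numbers. The waterlogged library was the lower of each pair, although the groups overlapped. The log2 fold change was -1.09 ± 0.45 without a replicate block (SE; edgeR adjusted p = 0.22) and -1.01 ± 0.25 with the replicate block (SE; edgeR adjusted p = 0.0299). Over 10 alternatives its adjusted p was 0.0299 to 0.529.

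The described genes had small fold changes and were not called. In 3Hc the log2 fold change was -0.13 in Pilastro, -0.17 in Passport, -0.15 in Golden Promise, -0.04 in Infinity and -0.15 in Regina. In 6He it was 0.38 ± 0.14 in Pilastro (SE; edgeR adjusted p = 0.112), where the waterlogged libraries at 8.69, 6.63 and 7.64 CPM were above the controls at 6.52, 5.62 and 5.68 CPM. The fold change of 6He in the other varieties was -0.004 in Passport, -0.03 in Golden Promise, 0.08 in Infinity and -0.18 in Regina on the log2 scale. The 4 genes with the largest separations (6Hi, 6Hh, 3Ha and 2Hd) had changes between -0.39 and 0.33 on the log2 scale in all 5 varieties.

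**Figure D5:**
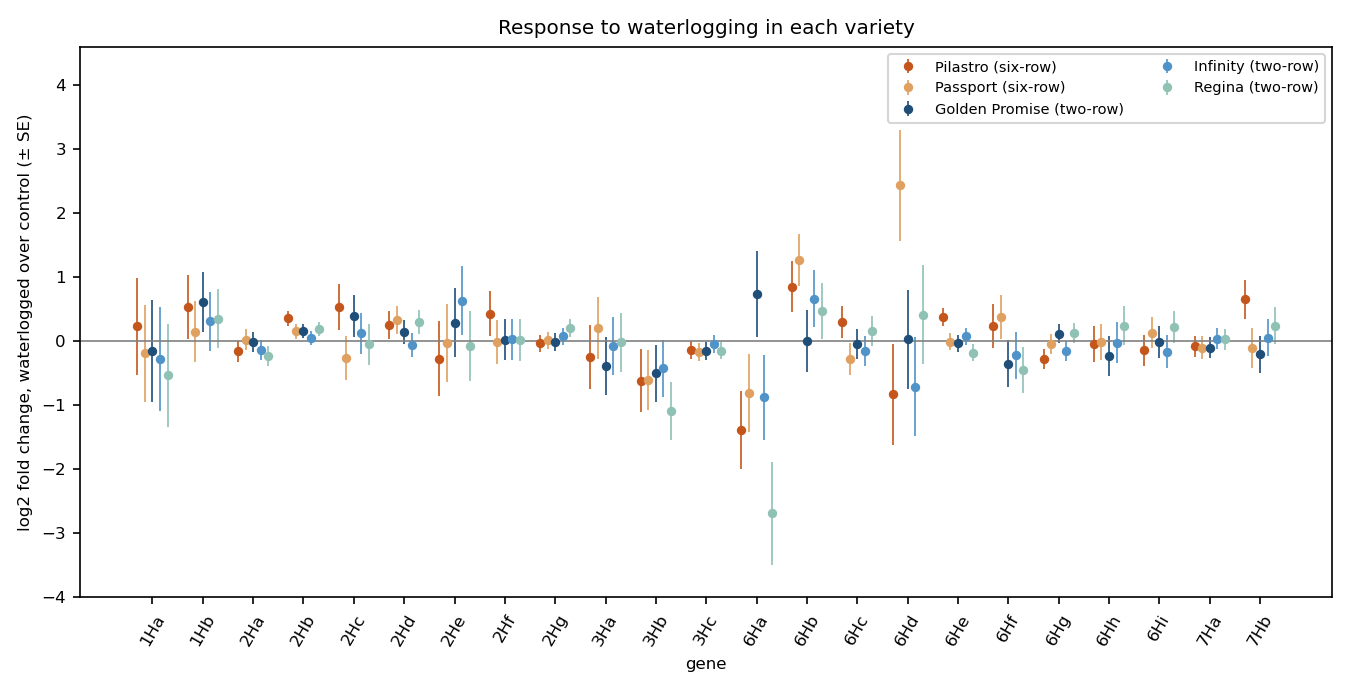
Log2 fold change of waterlogged over control libraries (vertical axis, points with SE) of the 23 genes in each of 5 varieties, in order along the chromosomes. Most points lie near 0, and the widest errors are those of 6Ha, 6Hd, 1Ha and 2He.

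Of 14 hypoxia-response genes named by the study on these samples (hemoglobin, alcohol dehydrogenase, pyruvate decarboxylase, a respiratory burst oxidase and ERF-VII factors), 10 were past the minimum and 0 met the rule. Their largest separation was 0.63, where a value under 1 means that the group means of the row types overlapped. Since the rule took waterlogged and control means together, a gene that waterlogging moved by many times within a row type could hardly pass it, and with 0.134% of all genes meeting the rule, 0 of 10 is no result about these genes. Of the list, 11 of 14 were called higher in waterlogged Pilastro, 9 in Passport, 10 in Golden Promise, 13 in Infinity and 14 in Regina, and 0 were called lower. Of all genes tested, 3.82% were called in Pilastro, 1.08% in Passport, 0.442% in Golden Promise, 3.92% in Infinity and 4.04% in Regina. The study named the list on these same samples, so these calls are no independent support. Of 28 candidate genes from published intervals for waterlogging tolerance, 17 were past the minimum and 0 met the rule, with a largest separation of 1.07. Of the 21 candidates tested, 0 were called after waterlogging in any variety. With 0.442% to 4.04% of all genes called, this is no result about the candidates, nor is 0 of 17 meeting the rule.

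Some of these genes were highest or lowest in libraries of the same replicate number, as were many genes outside the set. In the six-row groups the library numbered 1 was the highest of its group in 4 of 4 groups for 3Hb, 6Hb, 6Hh and 6Hi, and the library numbered 2 was the highest in 4 of 4 for 6Hd. The library numbered 3 was the lowest in 4 of 4 for 2He and 7Hb, and that numbered 2 was the lowest in 4 of 4 for 1Ha. Of all 17173 genes past the minimum, 13.9% had 1 replicate number highest in 4 of 4 six-row groups, and 11.9% had 1 number lowest in all of them. In the two-row groups the library numbered 2 was the lowest in 5 of 6 for 1Hb, 2Hf, 3Ha and 7Hb, and the highest in 5 of 6 for 6Hi. Over all genes past the minimum, 1 number was lowest in at least 5 of 6 two-row groups for 9.49% and highest for 12.6%.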

How the data were processed

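Labels gave the variety, the treatment and a replicate number of the 30 root RNA-seq libraries, which form 10 groups. The authors aligned single-end reads to the Morex V3 genome with Bowtie2 2.4.5, processed them with SAMtools 1.15.1 and estimated gene abundance with StringTie 2.1.7. The deposited values are whole counts per gene, not normalized, and all sample columns were used (0 unused). How reads that fit several genes were counted, and any strand setting, is not given in the sources used here. Of 58438 entries of the RefSeq list at hand, 0 matched an identifier. No sequences were used.

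CPM was the count divided by the library total, times 1000000. Counts were tested with edgeR 4.0.16 in R 4.3.3 (TMM, filterByExpr, 1 coefficient per group, all libraries in 1 quasi-likelihood fit, Benjamini-Hochberg adjustment over 20576 genes, threshold 0.05), and all 23 genes were tested. DESeq2 1.42.0 was an alternative. The test among two-row varieties was an F-test, that of row type by treatment a contrast. Each SE of an edgeR log2 fold change, also in the figure, was derived from the test. It is the absolute log2 fold change divided by the square root of the F statistic, and can differ from what the p-value implies. The edgeR fit and the rule were tried on simulated counts, with changes planted in waterlogged Pilastro and in six-row libraries. DESeq2 and the replicate block were not tried on them, and no change was planted near the threshold of the rule. Figures were drawn with matplotlib 3.10.9 in python 3.11.15.

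The genes of the set, the lists and the tests were chosen with earlier results of these data known. The hypoxia-response list was picked by the study from these libraries. Named were up to 8 described genes in each direction, the 2 with the largest separation in each direction by identifier, described genes called in a test, and the described genes nearest to the threshold. Genes called or nearly called without a description were named by chromosome and letter after their values were seen, as were the stretches of chromosomes.

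Replicates came from experiments run independently. Whether numbers pair libraries was checked by the correlation of deviations from the group means. Between waterlogged and control libraries of the same number, over 12687 genes, it was 0.292, 0.418 and 0.192 in Passport and 0.173, 0.386 and 0.498 in Regina, and at least 1 number was below 0.1 in the other varieties. Between Pilastro and Passport, over 11048 genes, it was 0.376, 0.329 and 0.46, and between Infinity and Regina 0.275, 0.586 and 0.559. Numbers were taken to pair libraries where every correlation was at least 0.1, a limit chosen here. This held within Passport and Regina, between Pilastro and Passport, and between Infinity and Regina. Single numbers in the other varieties still reached 0.542 in Pilastro, 0.31 in Golden Promise and 0.23 in Infinity. No values between unlike numbers stand beside these, so the pairing is uncertain. Golden Promise did not meet the limit with either of the other two-row varieties, as at least 1 number was below 0.1. The replicate block was nevertheless fitted for every variety, among the two-row varieties and for row type by treatment. Where numbers were not found to pair libraries, results with the block are read only with that limit.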

Additional observations from a re-analysis of the deposited data

How the results depend on the processing

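The size of the set depends on the rule. It held 29 higher and 43 lower genes when the row types had to lie 25% apart, and 5 and 5 with a factor of 2. With a minimum of 5 CPM it held 4 higher and 7 lower genes, with no minimum 20 and 33, and without Golden Promise 23 and 35. With TMM-scaled CPM or DESeq2 size factors there were 8 higher and 17 lower genes, and 22 of the 23 were kept, with 2Hb lost at a separation of 1.47 in both. With group medians there were 8 and 17, of which 20 were shared. Leaving out 1 library gave 5 to 9 higher and 14 to 18 lower genes, and 11 of the 23 genes met the rule in all 30 of these. The other 12 left the set without single libraries. Without Passport Control replicate 1 the separation was 1.30 for 1Ha, 1.31 for 2Hf and 1.29 for 6Hb, and without Passport Control replicate 2 it was 1.41 for 2Hc and 1.42 for 6Hc. It was 1.47 for 1Hb without Passport Waterlogged replicate 2, and 1.46 for both 2Hb and 6Hc without Pilastro Waterlogged replicate 2. Without Pilastro Control replicate 1 it was 1.39 for 6Hb and 1.46 for 6Hf, and without Golden Promise Control replicate 1 it was 1.30 for 1Hb and 1.42 for 2Hc. Without Regina Control replicate 1 it was 1.41 for 1Hb, and without Regina Control replicate 3 it was 1.48 for 2Hb and, on the log2 scale, 0.32 for both 2Hf and 7Hb, where the limit lies at 0.58. Without Regina Waterlogged replicate 2 it was 1.43 for 6Hb, and without Regina Waterlogged replicate 3 it was 1.45 for 3Hb and 1.48 for 6Hb. It was 1.46 for 2Hf without Infinity Control replicate 3 and 1.47 for 6Hd without Infinity Waterlogged replicate 3. A group mean fell under 1 CPM for 6Ha without Regina Waterlogged replicate 2, and for 6Hb without Golden Promise Waterlogged replicate 1 or Golden Promise Control replicate 3. The log2 separation of 1Ha was -0.00237 to 1.24 when 1 library was left out, and the row types overlapped without Passport Waterlogged replicate 1.

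Members called after waterlogging in Regina were 0 in edgeR, 1 in DESeq2 (6Ha) and 1 with the replicate block (3Hb). They were 0 to 1 when 1 library was left out, the 1 being 6Ha without Regina Control replicate 1. Pilastro against Passport gave 4 with and without the replicate block, 5 in DESeq2 (with 6Ha added, adjusted p = 0.0452, and 0.0424 to 0.128 over 16 alternatives) and 4 to 6 when 1 library was left out, the same 4 genes being called each time. Among two-row varieties there were 4 in each fit, and 4 to 7 when 1 library was left out. The 7, with 6Ha, 6Hh and 6Hi added, came without Regina Control replicate 3. The replicate block changed no other call of the 23 genes, but it was also fitted where numbers were not found to pair libraries.

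An exact permutation test of 3 libraries against 3 has 0.1 as its smallest two-sided p, so that tests of single genes rest on the fit over all genes. Genes near 1 CPM in a group, such as 2Hd and 2Hc, had as few as 12 and 11 counts in a library. The lowest count in a library was 9 for both 6Hb and 2He, 7 for 6Ha and 0 for 1Ha.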
